A study of Mus musculus with 4 samples.

Results

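The genes described here encode the constant regions of mouse immunoglobulins and the J chain. They were chosen by name, and they comprise the heavy chain genes Igha, Ighm, Ighd, Ighg1, Ighg2b, Ighg2c and Ighg3, the light chain genes Igkc and Iglc1, and Jchain, which makes 10 of the 48709 genes listed. Each was followed through 4 RNA-seq libraries, so that the isotype and light chain composition of each library could be described. All animals were C57BL/6 mice that carried the Tas2r143-CreERT2 transgene and the Rosa26flox-mT-stop-flox-mG allele. In them a bacterial artificial chromosome places CreERT2 under the Tas2r143 promoter and recombined cells change from Tomato to EGFP. All groups shared this genotype and tamoxifen on 5 days in adulthood, with analysis 5 days after the last injection, and the series holds no library of untreated animals. EGFP-positive cells were sorted from trachea and stomach with a gate for EGFP and without DAPI. For Tomato-positive cells the gate asked for Tomato and EpCAM and for the absence of EGFP and DAPI. Cells of 3 mice from 1 transgenic line were pooled for each library, which left 1 library per tissue and sort and no replicate. Only the Tomato sort was restricted to cells with the epithelial surface protein EpCAM.

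Immunoglobulins are made by B cells and, in large amounts, by plasma cells. The constant region of the heavy chain sets the isotype: mu for IgM, delta for IgD, gamma for the IgG subclasses and alpha for IgA, and class switching exchanges mu for another isotype in a B cell. IgA is the main isotype of mucosal plasma cells. The J chain is a small protein that links IgA or IgM units into polymers, and the epithelial receptor encoded by Pigr carries such polymers across the epithelium into the lumen. Light chains are of the kappa type, encoded with Igkc, or of the lambda type, encoded with Iglc1, Iglc2 or Iglc3 in mice.

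The heavy chain genes lie on the minus strand of chromosome 12 of GRCm38. In the direction of transcription Ighm (113418558 to 113422730) is followed by Ighd (113406604 to 113416324), Ighg3 (113356224 to 113361232), Ighg1 (113325240 to 113330523), Ighg2b (113302965 to 113307933), Ighg2c (113285325 to 113288932) and Igha (113254830 to 113260236). Igkc lies on the plus strand of chromosome 6 (70726435 to 70726966), Iglc1 on the minus strand of chromosome 16 (19061618 to 19062071) and Jchain on the minus strand of chromosome 5 (88519809 to 88527891).

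The secreted forms of alpha and mu chains end in a tailpiece whose cysteine, the second to last residue, is known to bond with the J chain, and gamma chains end without it. The last 18 codons and the stop codon of the secreted transcripts of the 3 heavy chain genes with the most normalized counts are shown for this difference, with the cysteine codon in capitals. The sequences were read from GRCm38 on the minus strand, at chr12:113258768-113258824 for Igha, chr12:113420867-113420923 for Ighm and chr12:113328976-113329032 for Ighg1.
Igha: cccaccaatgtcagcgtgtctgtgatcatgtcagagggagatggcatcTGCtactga
Ighm: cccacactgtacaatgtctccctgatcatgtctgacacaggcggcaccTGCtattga
Ighg1: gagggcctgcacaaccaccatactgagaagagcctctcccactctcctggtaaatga
Of these 57 bases, Ighm had 38 in common with Igha, and Ighg1 had 13. Reads of the 7 heavy chain genes could be told apart, because at most 0.768% of the 75-base windows of any of them (Ighg2b) occurred in another gene, and 0 windows of Igha, Ighm, Ighd and Ighg1 did. The share was also 0 for Igkc, Iglc1 and Jchain, and no exon of the 10 genes overlapped another gene.

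Each deposited value is a number of reads that had been scaled per library and rounded, and it is called a normalized count in the following. The sum was 9.98 M for trachea EGFP, 14.87 M for trachea Tomato, 13.63 M for stomach EGFP and 15.43 M for stomach Tomato. From the spacing of low values, about 6.20 M reads counted to genes stood behind the trachea EGFP library and 17.3 to 18.9 M behind the others. Reads that were sequenced but not counted to a gene are not part of these numbers. Intervals and detection floors (3 reads) cover counting error only, as reads were amplified by PCR without molecular identifiers. The sample titles and the tissue fields contradict each other on the tissue, and each library was given the tissue of its title. If the tissue field held, trachea and stomach would change places throughout, while every comparison of EGFP with Tomato would keep its values. A list of 8 tracheal epithelial genes summed to 1385086 normalized counts in the trachea Tomato library and 86 in the stomach Tomato library, and 10 gastric epithelial genes to 56210 and 2007408, of which the gastric lipase gene Lipf gave 53408 and 0. In the EGFP libraries of trachea and stomach the tracheal list summed to 62064 and 2, and the gastric list to 2067 and 159003. Of 12 tuft cell genes, 11 were at least 4-fold higher in the EGFP library of the trachea and 12 in that of the stomach. The remaining gene in the trachea, Gfi1b, was listed at 0 in both tracheal libraries. Of all genes with 50 or more normalized counts in their higher library, 25.2% were at least 4-fold higher in trachea EGFP and 14.8% in stomach EGFP.

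Immunoglobulin transcripts were present in all 4 libraries, but in very unequal amounts. The 10 genes made up 10.3% of all normalized counts in the stomach EGFP library, 0.450% in stomach Tomato, 0.294% in trachea EGFP and 0.0187% in trachea Tomato. In the stomach EGFP library 9 of the 10 genes were above the floor of 3 reads, in stomach Tomato 6, in trachea Tomato 5 and in trachea EGFP 3. Ighd, the constant gene of IgD, was listed at 0 in all libraries, and in the stomach EGFP library a count of 3 reads would have been worth 2.36 normalized counts. In bulk libraries fewer cells of a type and less RNA per cell cannot be told apart.

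**Figure D1:**
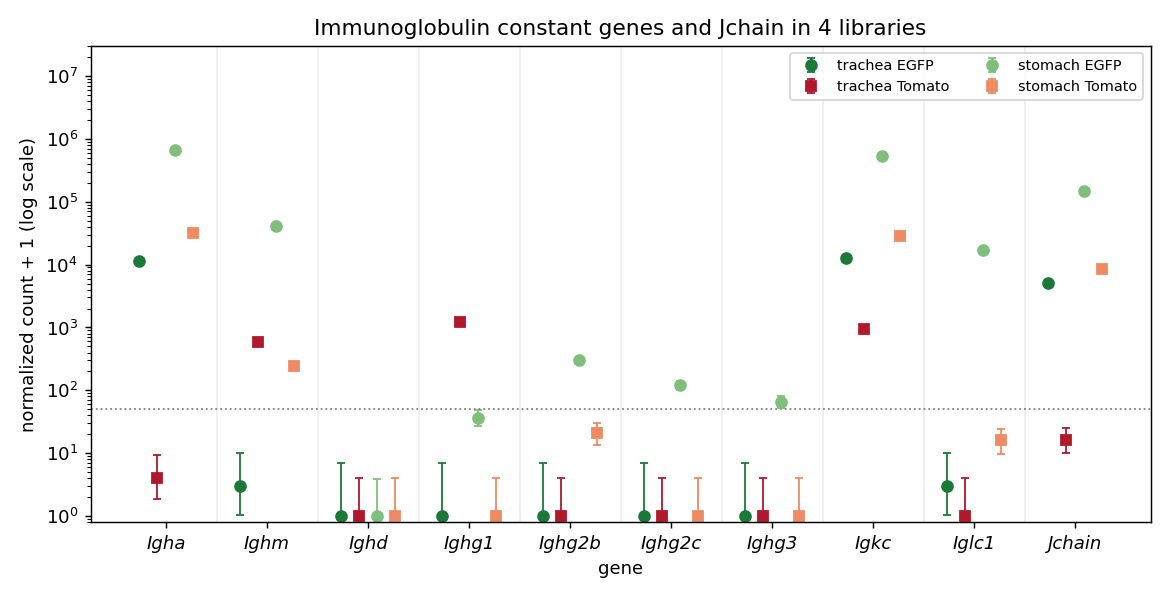
Normalized count + 1 (log scale) of the 10 genes in the 4 libraries, circles for EGFP and squares for Tomato, with 95% Poisson intervals of counting error and a dotted line at the minimum of 50. Igha, Igkc and Jchain lay highest in stomach EGFP (669648, 530119 and 149752), whereas Ighg1 was highest in trachea Tomato with 1233.

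Igha, the constant gene of IgA, stood at 11389 normalized counts in trachea EGFP, 3 in trachea Tomato, 669648 in stomach EGFP and 32337 in stomach Tomato. It was the highest heavy chain gene in every library but trachea Tomato, where the 3 normalized counts correspond to 4 reads. Ighm, the constant gene of IgM, stood at 2 in trachea EGFP, 580 in trachea Tomato, 40534 in stomach EGFP and 242 in stomach Tomato. It was thus high in 1 EGFP library and at 1 read in the other.

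Of the gamma genes, Ighg1 stood at 0 in trachea EGFP, 1233 in trachea Tomato, 35 in stomach EGFP and 0 in stomach Tomato. Ighg2b was listed at 0 in both tracheal libraries, at 303 in stomach EGFP and at 20 in stomach Tomato. Ighg2c and Ighg3 were above 0 only in stomach EGFP, with 120 and 64 normalized counts. The gamma genes therefore appeared as a mixture in the stomach EGFP library and as Ighg1 alone in trachea Tomato. Ighe, the constant gene of IgE, was listed at 0 in all 4 libraries.

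Igkc stood at 12790 normalized counts in trachea EGFP, 948 in trachea Tomato, 530119 in stomach EGFP and 28372 in stomach Tomato. Iglc1 stood at 2, 0, 17258 and 15 in the same order. Jchain stood at 5156 in trachea EGFP, 15 in trachea Tomato, 149752 in stomach EGFP and 8479 in stomach Tomato. Igkc and Jchain, like Igha, were higher in the EGFP than in the Tomato library of each tissue.

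Levels were compared between genes per M normalized counts and per kb of the secreted (heavy chain) or main transcript. In stomach EGFP the order was Igkc (73120), Igha (44671), Jchain (7889), Iglc1 (2789), Ighm (1992), Ighg2b (20.0), Ighg2c (7.93), Ighg3 (4.34) and Ighg1 (2.39), and no interval overlapped that of its neighbour. In trachea EGFP the order was again Igkc (2409), Igha (1038) and Jchain (371). In stomach Tomato it was Igkc (3456), Igha (1905), Jchain (394), Ighm (10.5), Iglc1 (2.14) and Ighg2b (1.16), of which Iglc1 and Ighg2b could not be separated by their counting intervals. In trachea Tomato Igkc (120) was followed by Ighg1 (77.1) and Ighm (26.1), while Jchain (0.724) and Igha (0.183) came last with overlapping intervals.

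The isotype composition was calculated as the share of each gene in the normalized counts of the 7 heavy chain genes, a measure on which the factor of a library has no effect. Igha gave 99.98% of them in trachea EGFP (95% Clopper-Pearson interval from 99.92), 94.2% in stomach EGFP (94.17 to 94.27) and 99.2% in stomach Tomato. In trachea Tomato it gave 0.165% (0.0486 to 0.456). There Ighg1 gave 67.9% (65.9 to 69.8) and Ighm 31.9% (30.0 to 33.9). Trachea Tomato was the library whose heavy chains were of another isotype, and it was also the one with the fewest of them, 1816 normalized counts against 11391 in trachea EGFP, 32599 in stomach Tomato and 710704 in stomach EGFP.

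Ighm gave 5.70% (5.66 to 5.75) of the heavy chain counts in stomach EGFP, 0.742% in stomach Tomato and 0.0176% in trachea EGFP. The gamma genes together gave 0.0734% in stomach EGFP, 0.0614% in stomach Tomato and 0 of 7074 reads in trachea EGFP, which allows a share of up to 0.0521%. Of the 522 gamma counts in stomach EGFP, Ighg2b gave 58.0% (54.1 to 61.8), Ighg2c 23.0% (19.9 to 26.4), Ighg3 12.3% (9.81 to 14.9) and Ighg1 6.70% (4.99 to 8.96). Ighg1 was the least frequent gamma gene there and the only one listed above 0 in trachea Tomato.

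**Figure D2:**
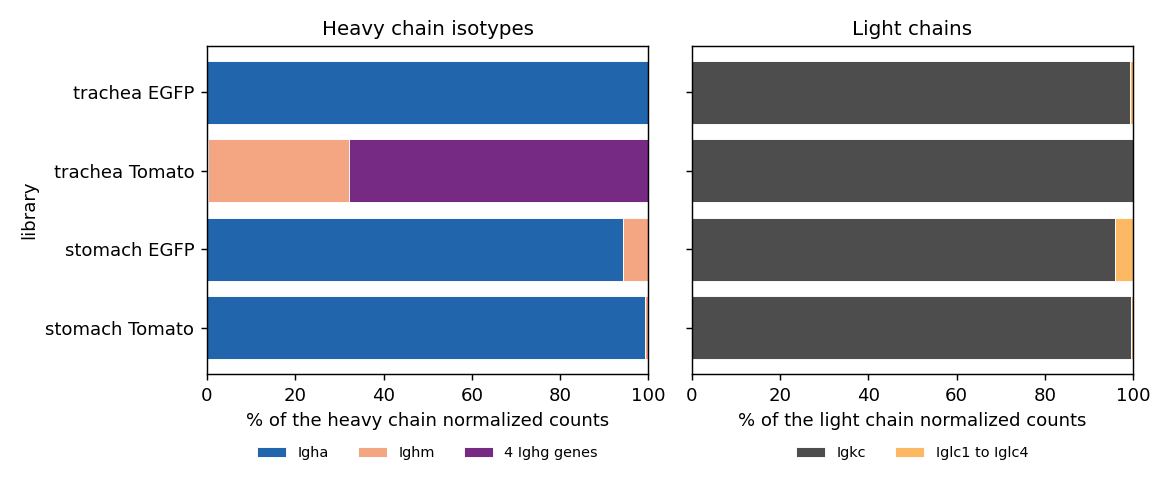
Share (%) of Igha, Ighm and the 4 Ighg genes in the heavy chain normalized counts (left) and of Igkc and the 4 lambda constant genes in the light chain normalized counts (right), with 1 bar per library. Igha fills 94.2 to 99.98% of the heavy chain bar in 3 libraries and 0.165% in trachea Tomato, and Igkc fills 95.8% or more of each light chain bar.

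Light chains were almost all kappa. Igkc gave 99.98% of the counts of Igkc and Iglc1 in trachea EGFP, 100% in trachea Tomato (0 Iglc1 in 1172 light chain reads, which allows up to 0.314%), 96.8% in stomach EGFP and 99.95% in stomach Tomato. With all lambda constant genes included, the kappa share was 99.2%, 100%, 95.8% and 99.6%. By constant genes the lambda share was thus highest in stomach EGFP. By variable segments it was highest in trachea EGFP, where Iglv gave 22.9% of the Iglv and Igkv counts (604 and 2031). It was 8.12% in stomach EGFP (18490 and 209119), 4.39% in stomach Tomato and 0.183% in trachea Tomato, the last from 1 Iglv count. The trachea EGFP share rested on few segments, as Iglv1 gave 601 of the Iglv counts and Igkv10-94 gave 86.0% of the Igkv counts. No intervals were calculated for these shares.

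Which lambda constant gene was used differed between libraries. These genes are related copies, and the 75-base stretches of the constant exon that tell them apart are shown, with capitals at the positions where not all 3 have the same base. They were read on the minus strand of GRCm38 at chr16:19061995-19062069 (Iglc1), chr16:19198776-19198850 (Iglc2) and chr16:19065605-19065679 (Iglc3).
Iglc1: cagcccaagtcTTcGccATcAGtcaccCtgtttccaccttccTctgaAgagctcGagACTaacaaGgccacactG
Iglc2: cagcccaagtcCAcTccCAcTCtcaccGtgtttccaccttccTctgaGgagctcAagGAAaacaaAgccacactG
Iglc3: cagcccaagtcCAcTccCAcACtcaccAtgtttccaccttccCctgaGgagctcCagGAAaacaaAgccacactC
In these stretches Iglc1 differed from Iglc2 at 14 positions and from Iglc3 at 15, while Iglc2 and Iglc3 differed at 5. Of the lambda constant counts, Iglc1 gave 74.5% in stomach EGFP, with 23.8% from Iglc2 (5519) and 1.61% from Iglc3 (373). In trachea EGFP 98.1% (91.7 to 99.96) of the 105 lambda counts came from Iglc3, which stood at 103, with Iglc1 at 2 and Iglc2 at 0. In stomach Tomato Iglc2 (77) gave 62.1%, Iglc3 (32) 25.8% and Iglc1 (15) 12.1%. Values of Iglc3 are less certain, since 7.14% of its windows occur elsewhere and its exon overlaps the antisense gene 2010309G21Rik, and Iglc2 shares exon sequence with Iglj2. Iglc4 stood at 2 or less in all libraries.

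The J chain was set against the heavy chains it can join. The ratio of Jchain to the sum of Igha and Ighm was 0.453 (0.434 to 0.472) in trachea EGFP, 0.211 (0.210 to 0.212) in stomach EGFP and 0.260 (0.255 to 0.266) in stomach Tomato. In trachea Tomato it was 0.0257 (0.0158 to 0.0415), from 15 normalized counts of Jchain and 583 of both heavy chains. Trachea Tomato therefore had the lowest ratio to this sum, and no interval overlapped another. Against Igha alone the order changed, and trachea Tomato had the highest ratio, 5 (1.58 to 19.2), from 15 and 3 normalized counts. The ratio to Igha alone was 0.453 in trachea EGFP, 0.224 in stomach EGFP and 0.262 in stomach Tomato. The ratio of light to heavy chain normalized counts was 1.12 in trachea EGFP, 0.522 in trachea Tomato, 0.770 in stomach EGFP and 0.871 in stomach Tomato.

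In the trachea, Igha, Jchain and Igkc were higher in EGFP-positive than in Tomato-positive cells, and Ighm and Ighg1 were lower. The measure of the difference was log2((EGFP + 1)/(Tomato + 1)), and a gene was called from 2 or -2 on, a 4-fold difference, where its higher library reached 50 normalized counts. Of the 10 genes 5 reached this minimum, 3 of them were called higher and 2 lower, whereas 25.2% of the 10523 genes at the minimum were called higher and 32.4% lower. Because genes reach the minimum through their higher library, and each library stands alone, these counts describe the libraries and carry no test. The median of the 5 genes was 3.75, and that of all genes at the minimum -0.32. Igha had a log2 value of 11.48, with a ratio of 3796 whose interval reached from 1374 to 12921 because of the 4 reads in the Tomato library. Jchain followed with 8.33 (ratio 344, 214 to 558) and Igkc with 3.75 (ratio 13.5, 12.7 to 14.4). Igkc was thus raised less than Igha, and in the Tomato library it stood beside Ighg1 and Ighm. The log2 value of Ighm was -7.60, from 1 read in EGFP-positive cells, and its ratio of Tomato to EGFP was 290 (64.4 to 14248). Ighg1 was at least 255-fold lower in EGFP-positive cells, measured against the floor. Ighd, Ighg2b, Ighg2c and Ighg3 were listed at 0 in both tracheal libraries, and Iglc1 stood at 2 and 0.

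In the stomach, every member that reached the minimum was higher in EGFP-positive cells. These were 8 of the 10 genes, with a median log2 value of 5.20 against -0.15 over all 11094 genes at the minimum, of which 14.8% were called higher and 22.4% lower. Iglc1, Ighg2b, Ighg2c and Ighg3 reached the minimum only in the EGFP library, so their calls and the median depend on that filter. As in the trachea, these counts describe the libraries and carry no test. Iglc1 had the largest value, 10.08 (ratio 1151, 743 to 1982), followed by Ighm with 7.38 (ratio 167, 150 to 189). Igha, Igkc and Jchain lay close together with 4.37 (ratio 20.7, 20.5 to 20.9), 4.22 (ratio 18.7, 18.5 to 18.9) and 4.14 (ratio 17.7, 17.32 to 18.01). Among the gamma genes Ighg2b had a log2 value of 3.86 (ratio 15.2, 10.2 to 24.4), while Ighg2c and Ighg3 were at least 49.0-fold and 26.1-fold higher. Ighg1 did not reach the minimum with 35 against 0 normalized counts. The lambda genes outside the 10 were also higher, Iglc2 with 6.15 and Iglc3 with 3.50.

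**Figure D3:**
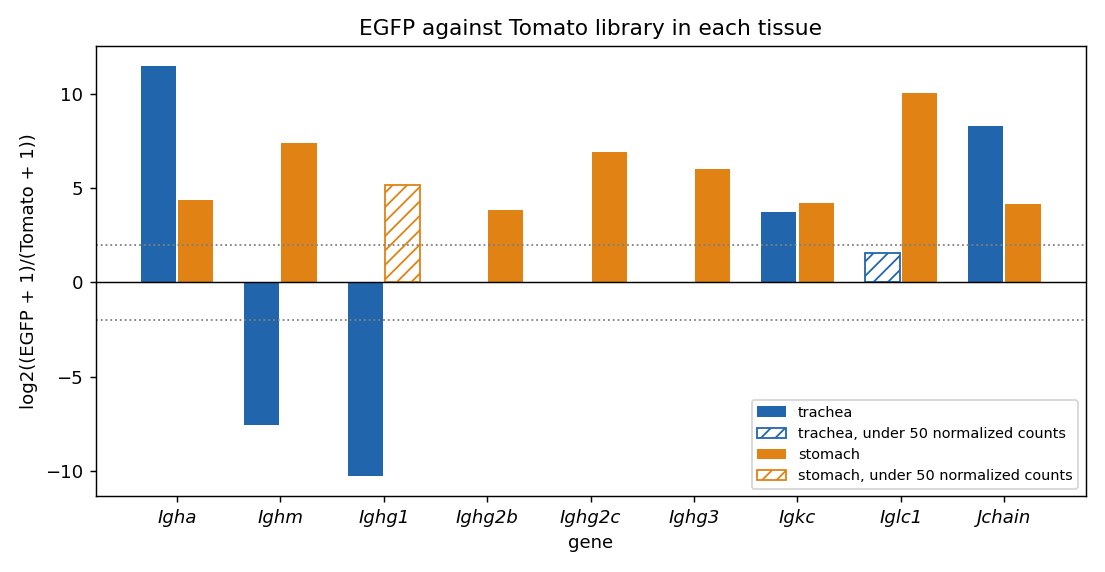
log2((EGFP + 1)/(Tomato + 1)) of 9 genes in trachea (blue) and stomach (orange), with hatched bars where neither library reached 50 normalized counts and dotted lines at 2 and -2. Igha, Igkc and Jchain are positive in both tissues, Ighm is -7.60 in the trachea and 7.38 in the stomach, and genes without a bar in the trachea were listed at 0 in both libraries.

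Both tissues were also fitted together with limma on log2(normalized count + 1), with tissue as a block, which leaves 1 residual degree of freedom. Igha, Igkc and Jchain passed the threshold of 0.05 after Benjamini-Hochberg adjustment, and 0.929% of the 13023 genes tested were called higher in EGFP-positive cells and 1.41% lower. The mean log2 difference was 7.92 for Igha (SE 0.65, adjusted p = 4.97e-30), 6.24 for Jchain (SE 0.75, adjusted p = 1.96e-13) and 3.99 for Igkc (SE 0.47, adjusted p = 6.50e-14). Iglc1 had 5.83 (SE 2.93, adjusted p = 0.447), Ighm -0.11 (SE 1.38, adjusted p = 0.985) and Ighg1 -2.55 (SE 3.54, adjusted p = 0.881). The 3 other gamma genes had adjusted p-values from 0.881 to 0.902, and Ighd was not tested. These p-values must be read with caution, since limma replaced the spread of each gene by a trend over all genes. Igha differed by 11.48 in the trachea and 4.37 in the stomach, and with its own spread the SE was 3.55 and the adjusted p 0.780. With the own spread of each gene, without the tissue block, without the trend, without the minimum, or with any library left out (then also without the block), 0 of the 10 genes passed. With a robust prior, limma called Igkc and Jchain but not Igha (adjusted p = 0.104).

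In both EGFP libraries Igkc, Igha and Jchain led, at very different levels. Igha was 58.8-fold (57.4 to 60.2) higher in stomach than in trachea EGFP, Igkc 41.4-fold (40.5 to 42.4) and Jchain 29.0-fold (28.0 to 30.1). Ighm stood at 40534 against the 2 normalized counts of 1 read. Measured against the floor, Ighg2b was at least 62.7-fold higher, Ighg2c 24.8-fold, Ighg3 13.2-fold and Ighg1 7.25-fold. The ratio of Ighm was 20267 with an interval from 4518 to 994288, and that of Iglc1 was 8629 (1923 to 423346). Iglc3 was the constant gene with the smallest ratio, 3.62 (2.78 to 4.77). As a percentage of the stomach EGFP value, trachea EGFP held 3.44% for Jchain, 2.41% for Igkc, 1.70% for Igha, 0.0116% for Iglc1 and 0.00493% for Ighm. The gastric epithelial genes also varied between these libraries, from Gkn1 with 10 against 55128 normalized counts and Pgc with 10 against 39704 to Atp4a with 749 against 2102, Tff2 with 369 against 1346 and Lipf with 924 against 0.

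Variable segments were summed to see how many stood beside the constant genes. In stomach EGFP, 97 of 185 Ighv segments and 72 of 160 Igkv segments reached 50 normalized counts, and the highest segment gave 6.07% of the Ighv and 5.31% of the Igkv sum. In stomach Tomato 13 Ighv and 5 Igkv segments reached it, with 15.1% and 28.7% in the highest. In trachea EGFP 7 Ighv and 3 Igkv segments did, and the highest gave 55.5% and 86.0% of the sums. The segments were thus many and even beside the stomach EGFP constant genes, and few and uneven beside those of trachea EGFP, which had fewer normalized counts and reads in all. In trachea Tomato the 1816 heavy chain counts of Ighg1, Ighm and Igha stood beside 1 Ighv count, while the 948 counts of Igkc stood beside 545 Igkv counts, all in 1 segment. For each 100 heavy chain constant counts there were 21.6 Ighv counts in trachea EGFP, 11.7 in stomach EGFP, 13.6 in stomach Tomato and 0.0551 in trachea Tomato. Segments were described by these sums only, because reads that aligned to several places had been left out.

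Genes of antibody-producing cells were examined beside the constant genes. Over all genes at the minimum, 25.2% were called higher in the trachea and 32.4% lower, and in the stomach 14.8% and 22.4%. These shares are the background for the calls of each gene list below. In the stomach 6 of 14 plasma cell genes at the minimum were called higher in EGFP-positive cells and 1 lower, with a median log2 value of 0.37. Mzb1, a folding factor of plasma cells, stood at 1848 in stomach EGFP, 59 in stomach Tomato and 0 in both tracheal libraries. Tnfrsf17, the receptor BCMA, stood at 132 in stomach EGFP and 2 in stomach Tomato, and Pou2af1, a coactivator of B cell transcription, at 445 and 0. Ccr10, a homing receptor of IgA-secreting cells, stood at 234 and 0, and Eaf2 at 363 and 0. The remaining called genes, named after their values were seen, were Slamf7 with 741 and 107 and, lower, Fkbp11 with 152 and 655. In trachea EGFP Mzb1, Tnfrsf17, Pou2af1, Ccr10 and Eaf2 were listed at 0 beside 11389 normalized counts of Igha. Igha itself was 58.8-fold lower there than in stomach EGFP, and 3 reads were worth 4.83 normalized counts. The zeros of genes with low values in stomach EGFP therefore say little. Xbp1 and Sec11c of the same list stood at 1942 and 2048 in trachea EGFP and at 765 and 1041 in trachea Tomato, and neither was called.

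Sdc1, the plasma cell surface proteoglycan that epithelial cells also carry, stood at 0 in trachea EGFP, 5642 in trachea Tomato, 499 in stomach EGFP and 1023 in stomach Tomato. Prdm1, the transcription factor Blimp-1, stood at 29 in stomach EGFP, 12 in stomach Tomato and 1 or less in the tracheal libraries. In the trachea 3 of 7 plasma cell genes were called higher (Tnfrsf13b at 2307 and 0, Derl3 at 196 and 0, Creld2 at 1307 and 79) and 2 lower (Sdc1, and Eaf2 at 0 and 169). Of the 16 genes, 11 were listed at 0 in trachea EGFP, 9 in trachea Tomato, 0 in stomach EGFP and 4 in stomach Tomato, and the list summed to 7800, 7741, 14216 and 9682 normalized counts.

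**Figure D4:**
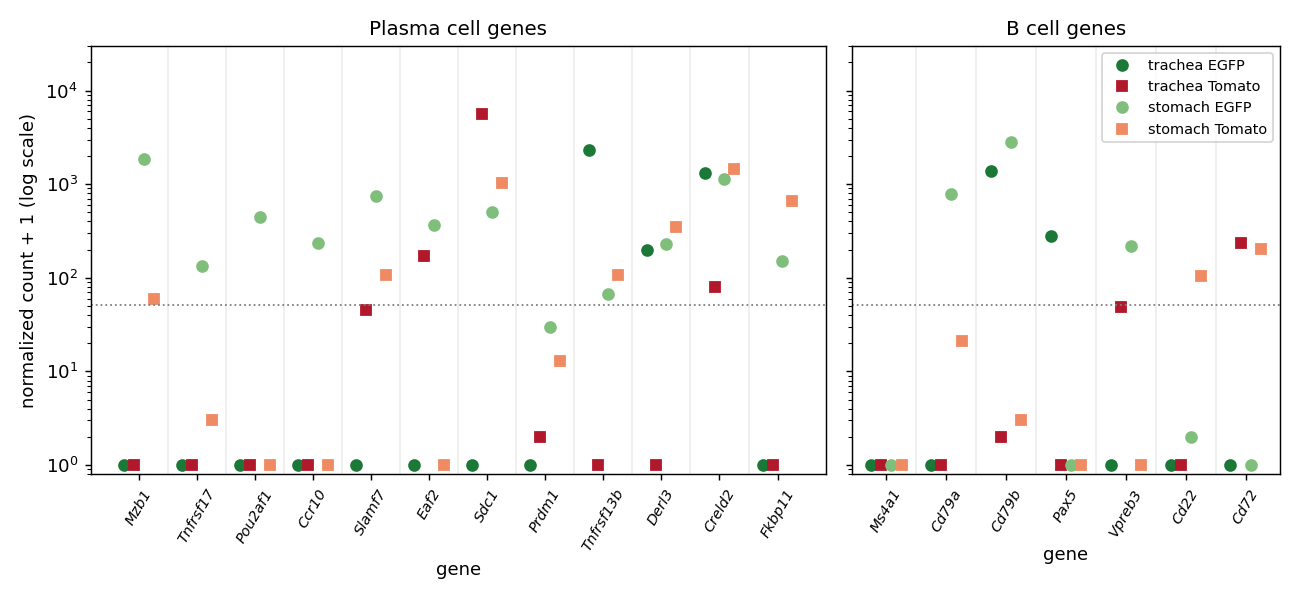
Normalized count + 1 (log scale) of plasma cell genes (left) and B cell genes (right) in the 4 libraries, circles for EGFP and squares for Tomato, with a dotted line at the minimum of 50. Mzb1, Tnfrsf17, Pou2af1 and Ccr10 lie highest in stomach EGFP (1848, 132, 445 and 234) and at 0 in trachea EGFP, and Ms4a1 is at 0 in all libraries.

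Of 18 B cell genes, 15 were listed at 0 in each tracheal library, 7 in stomach EGFP and 9 in stomach Tomato. Cd79b was the highest of them in both EGFP libraries. Ms4a1, which encodes CD20, was listed at 0 in all 4 libraries. The signalling partners of the antigen receptor differed from each other, as Cd79a stood at 0, 0, 791 and 20 in trachea EGFP, trachea Tomato, stomach EGFP and stomach Tomato, and Cd79b at 1386, 1, 2855 and 2. Of the genes at the minimum 2 of 3 were higher in trachea EGFP (Cd79b, and the B lineage factor Pax5 at 280 and 0) and 1 lower (Cd72 at 0 and 236). In the stomach 3 of 9 were higher (Cd79b, Vpreb3 at 216 and 0, Cd79a) and 2 lower (Cd72 at 0 and 200, Cd22 at 1 and 104). The 18 genes summed to 1713, 285, 4262 and 788 normalized counts in the 4 libraries.

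Pigr was high in the tracheal libraries only. It stood at 1625 normalized counts in trachea EGFP and 1795 in trachea Tomato, but at 3 in stomach EGFP and 1 in stomach Tomato. Of the genes for transport and plasma cell support, 2 of 8 were called higher in the trachea and 4 lower, and 2 of 9 higher in the stomach and 7 lower. The tracheal share called higher was thus near the 25.2% over all genes at the minimum. Higher in both tissues were Itgb7, an integrin of gut-homing lymphocytes, with 9534 against 133 in the trachea and 134 against 0 in the stomach, and Tnfsf13, the plasma cell survival factor APRIL, with 607 against 43 and 61 against 3. Itga4, another integrin gene of the list, was lower in both tissues, with 0 against 1083 and 12 against 141. The lower genes also included Fcgrt, the neonatal Fc receptor, with 325 against 2231 and 12 against 974, and Vcam1 with 2 against 146 and 1 against 899. Of 16 genes of protein folding and secretion, 2 were called higher in the trachea (Ero1lb with 1370 against 16 and Edem1 with 190 against 4), and 0 were called in the stomach, where the median log2 value was -0.38. All 16 thus differed by less than 4-fold between the stomach libraries, while Igha differed 20.7-fold.

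Pan-leukocyte genes were called in both directions, whereas all called myeloid and T cell genes were lower in EGFP-positive cells. Of 8 pan-leukocyte genes, 2 were called higher in the trachea and 5 lower, and 3 higher in the stomach and 1 lower. Over all genes at the minimum, 25.2% were called higher and 32.4% lower in the trachea, and 14.8% and 22.4% in the stomach. Ptprc, which encodes CD45, stood at 338 in trachea EGFP, 1 in trachea Tomato, 1051 in stomach EGFP and 768 in stomach Tomato, and Ptpn6 at 13609, 172, 21888 and 808. Coro1a, Laptm5 and Cd52 were each listed at 0 in trachea EGFP, and at 557, 505 and 307 in trachea Tomato. In stomach EGFP and stomach Tomato Laptm5 stood at 46 and 1416, Rac2 at 11586 and 955 and Coro1a at 440 and 104. Myeloid genes were lower in EGFP-positive cells for 10 of 11 in the trachea and 12 of 13 in the stomach, with sums of 857 against 56119 and 2058 against 29694. T cell genes summed to 98, 1579, 6 and 78 in the 4 libraries, and Trac, the constant gene of the T cell receptor alpha chain, stood at 1459 in trachea Tomato and 0 in the others. Of the 13 T cell genes 10 were listed at 0 in trachea Tomato, Cd3e, Cd3d, Cd4 and Cd8a among them, and Cd3g stood at 36 there and 98 in trachea EGFP. H2-Aa, an antigen presentation gene, stood at 8389 in trachea Tomato and 2 in trachea EGFP. Epcam, read after the other values were known, stood at 5871, 1450, 4648 and 1751, so it was higher in the EGFP library of each tissue. The EGFP sort had no EpCAM gate, and the value of a bulk library does not show how many cells lacked Epcam. The part of other cell types, of the gate and of the fewer counted reads of trachea EGFP in the immunoglobulin values was not tested.

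The genes whose pattern over the 4 libraries was most like that of Igha were named by the smallest distance between centred log2(normalized count + 1) values, among 9297 genes whose highest library reached 200. They were Ccnj (distance 2.94), Cfi (3.06), Vsig2 (3.32), Bcl2l14 (3.59), Nt5c3 (3.62), Cdkn1c (3.77), Anxa10 (3.85), Tmem45b (4.02), Cdhr5 (4.48) and Abcc5 (4.72). All 10 were listed at 0 in trachea Tomato, where Igha stood at 3. Ccnj, a cyclin gene, stood at 1129 in trachea EGFP, 18176 in stomach EGFP and 638 in stomach Tomato. Cfi, complement factor I, stood at 1319, 10306 and 4877. Of the other 9 immunoglobulin genes, Jchain (3.33) was as near as these, Igkc (6.95) was farther, with 948 normalized counts in trachea Tomato, and Ighg1 was the farthest (19.5). With 4 libraries such likeness is a description.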

How the data were processed

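RNA was measured in 4 libraries, 1 per tissue and sort. The authors trimmed reads of 75 bases with Reaper 13-100, aligned them to GRCm38 with STAR 2.4.0a and used featureCounts 1.4.5-p1 to count exonic reads for each gene. Reads with several positions or genes were dropped, which can lower the values of near-identical genes. The deposited score is this read count after scaling of each library and rounding. The scaling factor and the strand setting are not given in the sources used here.

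The worth of 1 read (0.786 to 1.61 normalized counts) was estimated from the spacing of low values, and exact Poisson or binomial 95% intervals were calculated on estimated reads. Gene models and sequences came from GENCODE M21 on GRCm38. limma 3.58.1 (R 4.3.3, eBayes with trend) was also run on simulated data with the same spread for every gene and the same change in both tissues. That run does not bear on genes such as Igha, whose difference varied between the tissues. Named genes were the members, list genes mostly taken from the largest called differences (up to 4 per list and tissue), fixed lineage markers and the 10 genes most like Igha. Not every list gene with such a difference is described, for example Lyz2, C1qb and Il6, which were lower in stomach EGFP. Some with smaller differences, such as Tnfsf13, are described. Members and lists were chosen with earlier results of these data known. Alternatives covered pseudocount, scaling, minimum, block, prior, left-out libraries and gene length. A lineage marker among the fixed ones is not reported here.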

Additional observations from a re-analysis of the deposited data

Results flagged for a closer look

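Among the 10 genes, Ighm and Ighg1 differed in opposite directions between the tissues, and with 1 library per tissue and sort the difference between the tissues was not tested. Ighm had a log2(EGFP/Tomato) of -7.60 in the trachea and 7.38 in the stomach. Ighg1 had -10.27 in the trachea and 5.17 in the stomach, where neither library reached 50 normalized counts. Of the genes of the marker lists that were called in both tissues, those called in opposite directions were Eaf2 and Coro1a. Eaf2 had -7.41 in the trachea and 8.51 in the stomach, and Coro1a, a pan-leukocyte gene, had -9.12 and 2.07. Groups of 1 library allowed no search for outlying samples.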

How the results depend on the processing

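With 1 library per group, single values rest on counting error and on the authors' factor. No paired analysis was possible apart from the tissue block of limma, because each tissue and sort had 1 library, pooled from 3 mice. The direction of log2(EGFP/Tomato) held under every pseudocount, scaling and minimum tried, for the 6 genes above 0 in the trachea and the 9 above 0 in the stomach. At a minimum of 500 the genes called higher in the stomach fell to 5, as Ighg2b, Ighg2c and Ighg3 lie below it, and without a minimum Ighg1 was added with 5.17. limma called 304 genes. It called 44 with a pseudocount of 0.1 and 193 at a minimum of 500, with Igha, Igkc and Jchain among them. It called 0 without a minimum (819 at an unadjusted p under 0.05), without the tissue block (776) and without the trend (976), and 2 with the own spread of each gene (608), with 0 of the 10 genes in each. Leaving out 1 library, without the block, gave from 0 to 573 genes, all 573 lower and without trachea Tomato, and 0 of the 10 genes. A robust prior kept Igkc and Jchain but gave Igha an adjusted p of 0.104 with limma. The prior settings were chosen after the data were seen. The mean log2 difference of Ighm turned from -0.11 to 0.86 with a pseudocount of 10, 0.20 at the same total, 0.31 at the same total without immunoglobulin genes, and ranged from -6.97 to 6.75 with 1 library left out. That of Ighg1 then ranged from -7.68 to 0.035 and that of Ighg2b from -0.27 to 6.05, all with limma and none called. Per kb of exon the Igha share was 92.0% in stomach EGFP and 98.9% in stomach Tomato, and per kb of the secreted transcript, added after the data were seen, 95.7% and 99.4%. With all lambda genes the kappa share was 99.2% in trachea EGFP, 95.8% in stomach EGFP and 99.6% in stomach Tomato, and per kb of transcript 96.3% in stomach EGFP. The ratio of Jchain to Igha and Ighm was 0.480, 0.218 and 0.275 per kb of exon in trachea EGFP, stomach EGFP and stomach Tomato, and 0.357, 0.169 and 0.206 per kb of the secreted transcript.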

Other observations

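The lambda transcripts of both EGFP libraries were also found in the joining segments, which were looked at after their values were seen. In trachea EGFP, where Iglc3 stood at 103 normalized counts, the Iglj segments summed to 32, of which Iglj3p gave 27, and Iglv1 gave 601 of 604 Iglv counts. No Iglj segment reached the minimum of 50 in that library, so its Iglj values rest on few reads. In stomach EGFP, where Iglc1 led with 17258, Iglj1 gave 352 of 376, and Iglv1 gave 14946 of 18490 Iglv counts. Ighj4 was the highest Ighj segment in trachea EGFP (155 of 203), stomach EGFP (4075 of 13725) and stomach Tomato (389 of 630). In trachea Tomato the Ighj counts were 28, all in Ighj1.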
